A study of Mus musculus with 8 samples.

Results

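The aryl hydrocarbon receptor (AHR) pathway was followed through the reprogramming of mouse fibroblasts into induced pluripotent stem cells (iPSCs). The genes were 8 in number and were taken by symbol from a deposited table of 17922 gene rows. They were the receptor gene Ahr, its partners Arnt and Arnt2, its repressor Ahrr, and the target genes Cyp1a1, Cyp1b1, Tiparp and Ugt1a6a. Each stood on 1 row of the table. The group was chosen by its FPKM values over these same 4 stages, so all values below are descriptions.

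The cells were C57BL/6 mouse embryonic fibroblasts (MEFs), taken from fetuses of 13.5 days, with tetO-OSKM, a transgene through which doxycycline switches on the reprogramming factors Pou5f1, Sox2, Klf4 and Myc. Long RNA was sequenced at 4 stages with 1 library each. Uninduced MEFs (day 0) were followed by cells 3 and 6 days into induction with doxycycline at 2 ug/ml, and by fully reprogrammed iPSCs. The transgene was in the cells of all stages, and no source used here says whether the iPSCs were 1 clone or several. Induced cells were kept with LIF and CHIR99021 (3 uM), which inhibits GSK3, in a medium based on serum replacement. No medium is given for the uninduced MEFs, so induction and medium cannot be told apart between MEFs and day 3 or day 6. No doxycycline or CHIR99021 is listed for the iPSCs. Cell state and culture conditions therefore cannot be told apart in the comparisons with iPSCs either.

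AHR is a transcription factor of the basic helix-loop-helix PAS family that is switched on by small molecules. It waits in the cytosol in a complex with HSP90 and the cochaperone p23. Planar aromatic pollutants such as dioxin, plant indoles and metabolites of tryptophan bind it, whereupon it enters the nucleus, pairs with ARNT and binds xenobiotic response elements, whose core is GCGTG. Its best known targets encode enzymes that oxidise or conjugate aromatic compounds, and other targets, AHRR and the ADP-ribosyltransferase TIPARP, dampen the receptor in return. An mRNA level does not measure ligand or the activity of the receptor.

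Values are FPKM, the fragments scaled to gene length and library size, and differences are on the scale log2(FPKM + 1), which understates those of weakly expressed genes. With 1 library a stage there was no spread between replicates, no test and no p-value. The rule of size used here calls a gene higher or lower from a difference of 1 upward, provided that the higher value reached 1 FPKM. A difference of 1 is 2-fold in FPKM + 1, and more than 2-fold in FPKM itself. In these bulk libraries, fewer cells expressing a gene and less RNA per cell cannot be told apart.

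The libraries carried the markers of their labels. The 10 fibroblast markers summed to 9224 FPKM in MEFs, 9239 on day 3, 8987 on day 6 and 240 in iPSCs. The 10 pluripotency markers summed to 1.34, 4.87, 11.1 and 2015 FPKM at the same stages. On day 3 and on day 6 only 2 of them reached 1 FPKM, and both are factors of the transgene. They were Pou5f1, at 3.03 and 8.56 FPKM, and Sox2, at 1.19 and 2.03. The fibroblast sum on day 6 was thus close to that of the MEFs, while the pluripotency sum was high in iPSCs alone.

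Of the 8 genes, 7 have a promoter window in RefSeq on build GRCm38.p6, here the 250 bases before the annotated start. The deposited table is on mm9 per the submitters' processing notes, and these coordinates are not on that build. The core GCGTG was searched on both strands, and matches are in capitals, written CACGC where the match is on the other strand. The 4 windows below are those of the repressor gene, of both P450 genes and of the conjugating enzyme gene, whose levels followed different courses. They lie at chr13:74292332-74292581 (minus strand) for Ahrr, chr17:79715062-79715311 (minus strand) for Cyp1b1, chr9:57697363-57697612 (plus strand) for Cyp1a1 and chr1:88134559-88134808 (plus strand) for Ugt1a6a.
Ahrr promoter: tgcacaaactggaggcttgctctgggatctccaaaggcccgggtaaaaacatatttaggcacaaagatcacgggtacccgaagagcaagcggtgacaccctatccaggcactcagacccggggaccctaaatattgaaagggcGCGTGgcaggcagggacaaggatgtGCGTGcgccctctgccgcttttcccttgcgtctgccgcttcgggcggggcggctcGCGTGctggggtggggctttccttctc
Cyp1b1 promoter: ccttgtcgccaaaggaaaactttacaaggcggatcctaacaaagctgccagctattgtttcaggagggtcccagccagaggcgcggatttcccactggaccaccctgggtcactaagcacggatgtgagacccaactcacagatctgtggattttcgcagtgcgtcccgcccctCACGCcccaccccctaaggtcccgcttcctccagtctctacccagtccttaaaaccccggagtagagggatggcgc
Cyp1a1 promoter: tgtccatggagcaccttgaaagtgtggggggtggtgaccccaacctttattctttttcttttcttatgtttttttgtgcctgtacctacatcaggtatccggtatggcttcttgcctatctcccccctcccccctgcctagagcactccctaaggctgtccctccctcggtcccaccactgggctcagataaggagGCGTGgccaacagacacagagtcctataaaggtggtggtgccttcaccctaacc
Ugt1a6a promoter: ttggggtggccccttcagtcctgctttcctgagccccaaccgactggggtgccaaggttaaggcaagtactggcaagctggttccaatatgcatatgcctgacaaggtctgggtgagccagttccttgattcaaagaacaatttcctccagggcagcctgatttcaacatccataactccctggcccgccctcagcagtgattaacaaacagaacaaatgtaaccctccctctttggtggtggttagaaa
The Ahrr window held the core 3 times, beginning 107, 82 and 27 bases before the start. Those of Cyp1b1, Cyp1a1, Arnt and Tiparp held it 1 time each, and those of Arnt2 and Ugt1a6a held 0. Of 32536 RefSeq windows of the same length, 28.3% held the core at least 1 time and 2.79% at least 3 times. The core contains a CG dinucleotide, and CG occurred 17 times in the Ahrr window, 12 in that of Cyp1b1, 3 in that of Cyp1a1 and 2 in that of Ugt1a6a, beside a median of 6 over all windows. The longer form TNGCGTG was in 1 of the 7 windows, that of Ahrr, and in 4.13% of all windows. A match is a description of letters and not a binding site, and the known enhancer elements of Cyp1a1 lie farther upstream than this window.

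The receptor gene Ahr was highest on day 6. It was at 6.65 FPKM in MEFs, 8.48 on day 3, 23.5 on day 6 and 2.13 in iPSCs. The first 2 libraries lay close together, the day 6 library stood above them and the iPSC library below all of the others. On day 6 Ahr was 2.77-fold above day 3 (log2 difference 1.37) and 3.54-fold above MEFs (1.68). By size the difference from day 3 was at rank 20 from the top among 11817 genes compared. Between day 3 and MEFs the log2 difference of 0.31 was within the rule, at rank 674 of 11740. In iPSCs Ahr was 11.0-fold below day 6 (log2 difference -2.97) and 3.12-fold below MEFs (-1.29). With a pseudocount of 5 FPKM the difference between iPSCs and MEFs was no longer past the rule.

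Arnt and Arnt2 encode related partner proteins of the PAS family, of which ARNT is made in most tissues and ARNT2 chiefly in brain and kidney. Arnt was at 15.8 FPKM in MEFs, 18.4 on day 3, 16.0 on day 6 and 22.5 in iPSCs. Its values lay within a log2 range of 0.48, and it was within the rule in all 5 comparisons. Arnt2 was at 8.12, 8.19 and 8.95 FPKM in MEFs, on day 3 and on day 6, and at 0.356 FPKM in iPSCs. The first 3 libraries were nearly level for Arnt2, with a log2 range of 0.13, and the iPSC library lay below them, 22.8-fold under MEFs (log2 difference -2.75). The FPKM of Arnt was 1.95 times that of Arnt2 in MEFs, 2.25 times on day 3, 1.78 times on day 6 and 63.3 times in iPSCs. The sum of both stayed between 22.9 and 26.6 FPKM at all 4 stages, so the partner transcripts in iPSCs were nearly all those of Arnt.

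Ahrr encodes a protein that resembles AHR, lacks its ligand-binding function and competes for ARNT and for the response elements. It was at 4.81 FPKM in MEFs, 4.81 on day 3, 2.40 on day 6 and 0.144 in iPSCs. The MEF and day 3 libraries were level and the day 6 library lay lower. It was 2.00-fold below day 3 by the ratio of FPKM, a log2 difference of -0.77. That was within the rule and at rank 119 from the bottom of 11817. It lay outside the interval from -0.59 to 0.51 that held the central 95% of genes in that comparison. In iPSCs Ahrr was 33.4-fold below MEFs by the ratio of FPKM (log2 difference -2.34). With a pseudocount of 5 FPKM that difference was -0.93 and no longer past the rule, and a minimum of 5 FPKM left Ahrr out of the comparison.

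**Figure D1:**
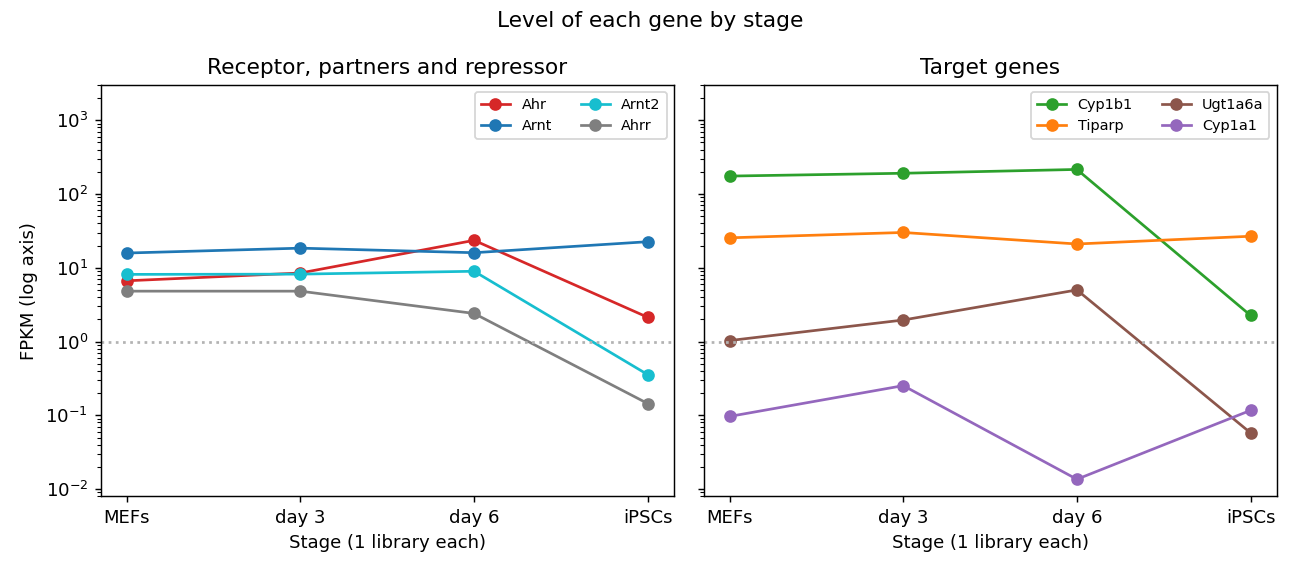
FPKM on a log axis at the 4 stages, 1 library each, for the receptor, its partners and its repressor (left) and for the target genes (right), with the dotted line at 1 FPKM. Ahr and Ugt1a6a peak on day 6, Ahrr is lower on day 6 than on day 3, and Cyp1b1 is at 175 FPKM or more until day 6 and at 2.26 FPKM in iPSCs.

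Receptor and repressor transcripts thus parted on day 6. The FPKM of Ahr was 1.38 times that of Ahrr in MEFs, 1.76 times on day 3, 9.80 times on day 6 and 14.7 times in iPSCs. In iPSCs the ratio was high with both genes low. Set against the partners together, Ahr was at 0.278 of the summed FPKM of Arnt and Arnt2 in MEFs, 0.319 on day 3, 0.943 on day 6 and 0.0930 in iPSCs. On day 6 the receptor transcript was therefore nearly as abundant per length as those of its partners, and at the other stages it was well below them.

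**Figure D2:**
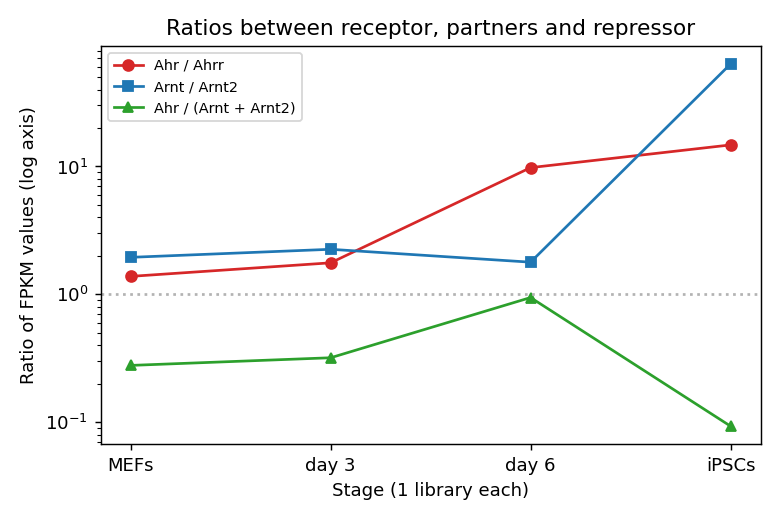
Ratios of FPKM values on a log axis at the 4 stages, 1 library each, with the dotted line at a ratio of 1. Ahr over Ahrr is 1.76 on day 3 and 9.80 on day 6, Arnt over Arnt2 stays between 1.78 and 2.25 until day 6 and is 63.3 in iPSCs, and Ahr over the sum of Arnt and Arnt2 is highest on day 6 with 0.943.

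Of the P450 genes of family 1 in the group, Cyp1b1 was far above Cyp1a1 until day 6. In iPSCs it was 19.4 times as high, but Cyp1a1 at 0.117 FPKM was too low there for a firm ratio. Cyp1b1 encodes an oxygenase of polycyclic aromatic compounds and estradiol and is the family 1 enzyme typical of mouse embryo fibroblasts. Its level was 175 FPKM in MEFs, 191 on day 3, 215 on day 6 and 2.26 in iPSCs. Across the first 3 libraries it stayed within a log2 range of 0.30 and made up between 72.5% and 73.8% of the summed FPKM of the 8 genes. In iPSCs it was 95.1-fold below day 6 (log2 difference -6.05) and 77.3-fold below MEFs (-5.75), at rank 41 and 60 from the bottom of all genes compared. Its share of the summed FPKM was 4.16% there.

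Cyp1a1 encodes the oxygenase most widely used as a readout of AHR activation. It was at 0.0965 FPKM in MEFs, 0.252 on day 3, 0.0136 on day 6 and 0.117 in iPSCs. All 4 values lay under the minimum of 1 FPKM, so Cyp1a1 entered no comparison, and no order is read from values this low.

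Tiparp encodes the mono-ADP-ribosyltransferase PARP7, which is induced by AHR and limits it. It was at 25.4 FPKM in MEFs, 30.0 on day 3, 21.0 on day 6 and 26.7 in iPSCs. Its values stayed within a log2 range of 0.50, with the highest on day 3 and the lowest on day 6, and it was within the rule in all 5 comparisons. Between day 6 and day 3 its log2 difference was -0.50, and between iPSCs and MEFs it was 0.07.

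Ugt1a6a encodes a glucuronosyltransferase that conjugates planar phenols. It was at 1.03 FPKM in MEFs, 1.96 on day 3, 5.00 on day 6 and 0.0578 in iPSCs. Each library of the first 3 lay above the one before, and the iPSC library lay below all of them. On day 6 it was 2.56-fold above day 3 (log2 difference 1.02) and 4.86-fold above MEFs (1.56). The first of these was just inside the rule, and with a pseudocount of 5 FPKM neither was past it. Against MEFs the iPSC value was 17.8-fold lower by the ratio of FPKM, yet at -0.94 on the log2(FPKM + 1) scale it was just outside the rule. Ugt1a6a overlaps 8 other genes of the Ugt1a cluster in the RefSeq annotation, which share their downstream exons and differ in the first, so reads can be split among their rows.

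Counted together, 0 of the 7 genes compared were past the rule for day 3 against MEFs, where 0.17% of all genes were higher and 0.0511% lower. For day 6 against day 3, 2 of 7 were higher (Ahr and Ugt1a6a) and 0 lower, beside 0.457% of all genes higher and 0.398% lower. For day 6 against MEFs the same 2 genes were higher and 0 lower, beside 0.77% of all genes higher and 0.584% lower. Both comparisons use the day 6 library. After rescaling to equal column totals, the calls over all genes for day 6 against MEFs were 110 higher and 48 lower, in place of 91 and 69. The median log2 difference of the 7 genes was 0.12 for day 6 against day 3, beside -0.01 over all genes. In that comparison Ugt1a6a was the member just inside the threshold (1.02) and Ahrr the one just outside it (-0.77).

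In iPSCs 5 of 7 were lower than on day 6 (Ahr, Ahrr, Arnt2, Cyp1b1 and Ugt1a6a) and 4 of 7 lower than in MEFs (the same without Ugt1a6a), with 0 higher in either. Over all genes 23.4% were lower and 20.4% higher than on day 6, and 25% lower and 21.1% higher than in MEFs. The balance of these calls turned with the scaling. With equal upper quartiles 2970 genes were higher and 2826 lower than on day 6, and 3226 higher and 2832 lower than in MEFs, where equal column totals gave 3130 and 2883. Ahrr, Arnt2 and Ugt1a6a reached 1 FPKM in the earlier library of these pairs and not in iPSCs, so the filter admitted them through the stage where they were high. Both comparisons share the iPSC library, in which fibroblast markers were also low. Macrophages, which express AHR, can be present in fibroblast cultures, and their markers with those of other leukocytes summed to 83.3 FPKM in MEFs, 61.8 on day 3, 67.5 on day 6 and 13.5 in iPSCs. Of 7 such markers compared between iPSCs and MEFs 6 were lower, with Emr1 and Tyrobp listed at 0 in iPSCs. These 6 reached 1 FPKM in MEFs and not in iPSCs, so the filter admitted them too through the stage where they were high. The 1 other marker compared was Cd68, a lysosomal protein gene. It was at 11.9 FPKM in iPSCs, most of the sum of the markers there, and at 8.45 in MEFs. Ptprc, under 1 FPKM in both and so not compared, was listed at 0 in iPSCs. Their part in the lower values of the pathway genes was not tested.

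**Figure D3:**
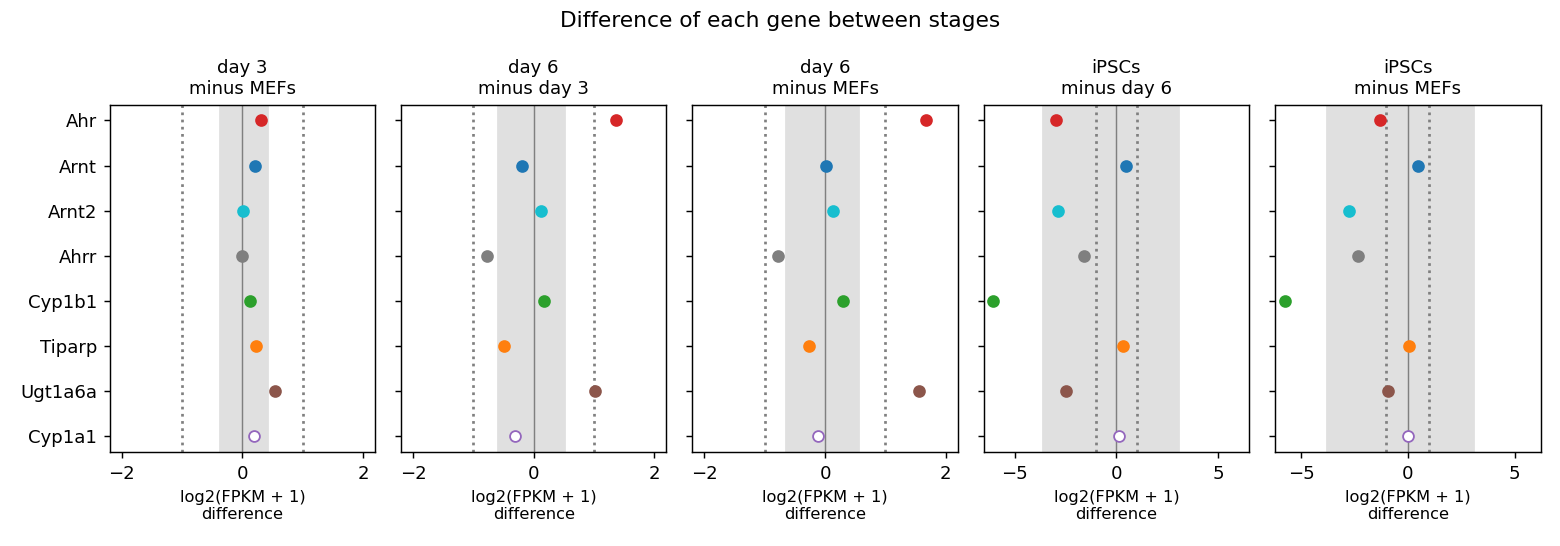
Difference in log2(FPKM + 1) of each of the 8 genes in the 5 comparisons, with the first-named stage minus the second. Dotted lines mark the rule at 1 and -1, the grey band holds the central 95% of all genes compared, and the open circle is Cyp1a1, which was under 1 FPKM in all libraries. Ahr and Ugt1a6a lie beyond 1 on day 6, and Cyp1b1 lies below the grey band in iPSCs.

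Other target genes of AHR were examined from a list of 15, written from textbook function with earlier results of these data known. Of these 14 were in the table, 5 of them members of the group above. For day 6 against day 3, 11 were compared, 7 were higher and 0 lower, beside 0.457% of all genes higher and 0.398% lower. The median log2 difference was 1.02, beside -0.01 over all genes. Of those, 3 (Ugt1a7c, Gsta1 and Gsta2) reached 1 FPKM on day 6 and not on day 3. Among the 8 that reached it at both, 4 were higher. The 4 within the rule were Cyp1b1 (log2 difference 0.17), Tiparp (-0.50), Ahrr (-0.77) and Nfe2l2 (0.15, taken up below). Cyp1a1 was under the minimum and not compared. Nqo1, the quinone reductase, was at 41.2 FPKM in MEFs, 62.3 on day 3, 159 on day 6 and 15.4 in iPSCs. Aldh3a1, which encodes an enzyme that oxidises aldehydes, was at 0.360, 9.97, 70.2 and 0.592 FPKM at the same stages. Both followed Ahr in having their highest value on day 6 and a far lower one in iPSCs, and Aldh3a1 differed from MEFs already on day 3, when it was the 1 gene of the list past the rule.

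The glutathione transferase genes of the list were weakly expressed. Gsta1 was at 0.0765 FPKM in MEFs, 0.497 on day 3 and 2.51 on day 6, and it was listed at 0 in iPSCs. Gsta2 was at 0.130, 0.365 and 2.77 FPKM at the first 3 stages and listed at 0 in iPSCs. These genes are close paralogs, so reads can be split between their rows. Of the Ugt1a cluster, Ugt1a6b was at 0.556, 1.16 and 3.39 FPKM and Ugt1a7c at 0.586, 0.554 and 2.46 in MEFs, on day 3 and on day 6. The other 4 rows of the cluster in the table were at 0.252 FPKM or less at all stages. The 7 rows of the cluster in the table, Ugt1a6a included, summed to 2.28 FPKM in MEFs, 3.91 on day 3, 11.5 on day 6 and 0.0692 in iPSCs. The order of stages was that of Ugt1a6a, which is itself part of the sum.

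Nqo1 is also a target of NRF2, the transcription factor of the antioxidant response, encoded by Nfe2l2. It was on both lists, and whether other genes of the AHR list are NRF2 targets too was not examined. The counts of both lists are therefore not separate. Of 18 NRF2 target genes, 5 were higher and 0 lower on day 6 than on day 3, with a median log2 difference of 0.53. Over all genes 0.457% were higher and 0.398% lower, with a median of -0.01. Beside Nqo1 these were Txnrd1, Srxn1, Gsta3 and Gsta4, of which Gsta3 reached 1 FPKM on day 6 alone. Srxn1, sulfiredoxin, was at 18.2 FPKM in MEFs, 18.0 on day 3, 49.4 on day 6 and 10.1 in iPSCs. Gsta4 was at 3.04, 6.78, 29.7 and 308 FPKM, so it departed from Ahr in iPSCs. Nfe2l2 itself was at 47.8, 53.2, 59.0 and 37.6 FPKM and within the rule in all 5 comparisons. NRF2 targets were thus among the higher genes on day 6 along with AHR targets, and the part of either factor was not tested.

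Epidermal genes were also among those higher on day 6. Keratinocytes make AHR, and 10 of 12 listed keratinocyte markers were in the table. They summed to 7.82 FPKM in MEFs, 11.0 on day 3, 25.9 on day 6 and 11.7 in iPSCs. For day 6 against day 3, 3 of 6 compared were higher (Krt14, Krt16 and Sprr1a) and 0 lower, beside 0.457% of all genes higher and 0.398% lower. Krt14 was at 0.575 FPKM on day 3 and 4.66 on day 6, and Krt16 at 0.939 and 5.27. The filter thus admitted both through day 6, where they were high. In iPSCs 5 of 6 were lower than on day 6, beside 23.4% of all genes. These 5 reached 1 FPKM on day 6 and not in iPSCs, so the filter admitted them through day 6. Dsp, the desmoplakin gene, was higher and made up 9.65 FPKM of the iPSC sum. Krt1, of the differentiating layers, was at 0.0388 FPKM on day 6 and Krt15 at 0.0447, while Krt14 and Krt1 were listed at 0 in MEFs and Krt15 on day 3. The macrophage and leukocyte markers were within the rule for day 6 against day 3 in all 8 genes compared. The part of either cell type in the Ahr level was not tested.

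**Figure D4:**
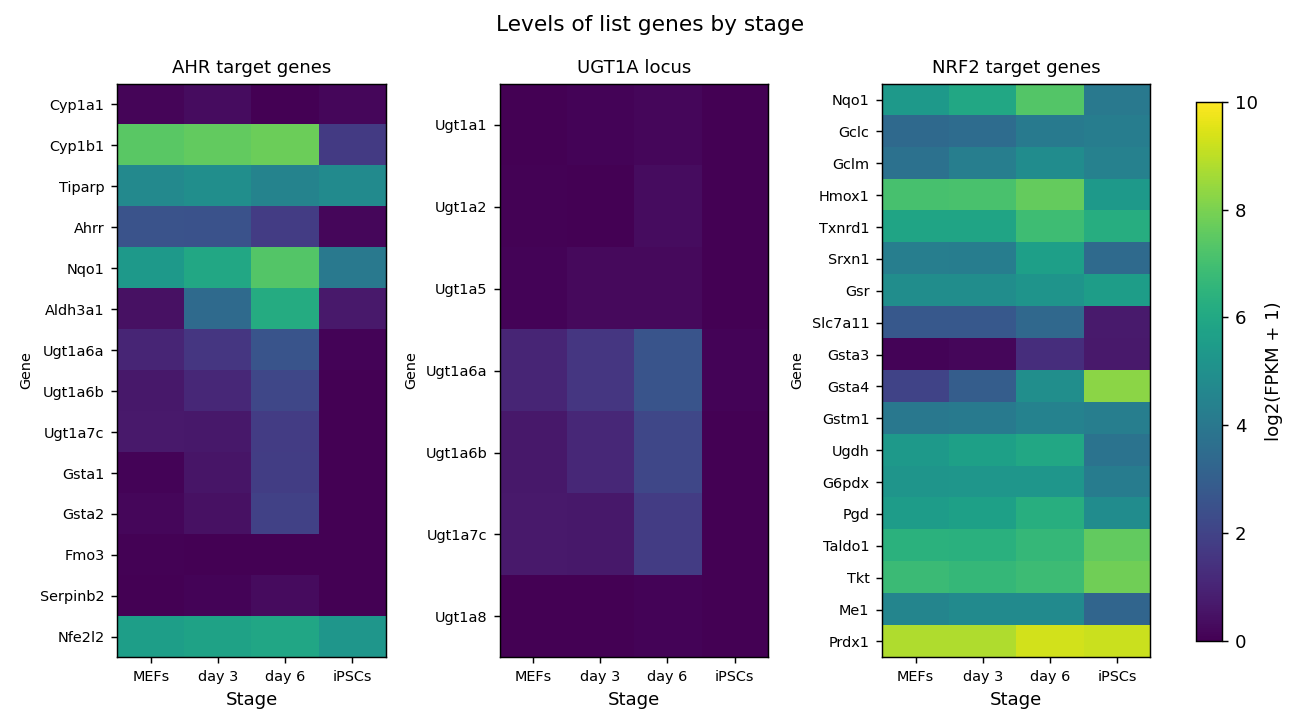
Levels as log2(FPKM + 1), by colour, at the 4 stages (columns) for the AHR target genes, the Ugt1a cluster and the NRF2 target genes found in the table (rows). Nqo1 and Aldh3a1 are brightest on day 6, Cyp1b1 is bright until day 6 and dark in iPSCs, Cyp1a1 is dark at all stages and Gsta4 is brightest in iPSCs.

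The chaperones that hold AHR in the cytosol followed another course than the receptor. Hsp90aa1 was at 339 FPKM in MEFs, 349 on day 3, 339 on day 6 and 2602 in iPSCs. Hsp90ab1 was at 610, 636, 692 and 1831 FPKM and Ptges3, the gene of p23, at 86.6, 92.8, 105 and 238 at the same stages. Of these 3 genes 0 were past the rule on day 3 or day 6, and all 3 were higher in iPSCs than in MEFs, as were 21.1% of all genes, while Ahr was lower there. HSP90 serves many client proteins, so these levels are not specific to the receptor.

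ARNT also pairs with other proteins of the PAS family, among them the hypoxia-inducible factors and the single-minded proteins. Sim2, a repressor studied mainly in neural and epithelial tissue, was at 36.9 FPKM in MEFs, 37.2 on day 3, 29.5 on day 6 and 0.0641 in iPSCs. In MEFs it was thus above Ahr, and in iPSCs it was lower by a log2 difference of -5.15. Hif1a was at 88.5, 75.0, 83.5 and 43.4 FPKM and Epas1, the gene of HIF2A, at 1.75, 2.48, 1.84 and 8.51. In iPSCs Hif1a was lower than in MEFs (log2 difference -1.01) and Epas1 higher (1.79). Of 10 such PAS genes compared, including those of the circadian clock, 0 were past the rule for day 3 or day 6 against MEFs. Over all genes 0.17% were higher and 0.0511% lower on day 3, and 0.77% higher and 0.584% lower on day 6. In iPSCs 1 of the 10 was higher and 5 lower than in MEFs, beside 21.1% of all genes higher and 25% lower. Of these 5, 2 reached 1 FPKM in iPSCs too, and the filter admitted the others through MEFs, where they were high.

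The genes whose course was most like that of each member were sought among 6608 rows with at least 1 FPKM in a library and a log2 range of at least 1. Likeness was the root mean square difference of the profiles over the 4 libraries, each centred on its mean. Closest to Ahr were Ly6c1 (0.12 on the log2 scale), a surface antigen of leukocytes and endothelium, Nqo1 (0.15), Ptgs1 (0.17), the gene of cyclooxygenase 1, Cxcl5 (0.17), a neutrophil chemokine, and Ugt1a6a (0.18). Ly6c1 was at 2.61 FPKM in MEFs, 3.57 on day 3, 10.6 on day 6 and 0.222 in iPSCs. Of the 5 nearest genes, Nqo1 and Ugt1a6a were also on the list of AHR targets. Ugt1a6a is a member of the group, and that list was written with earlier results of these data known. No support is therefore drawn from this overlap. Closest to Ahrr were Slc6a6 (0.05), a taurine transporter, Fam110c (0.06) and Lhx9 (0.07), closest to Arnt2 were Elk3 (0.04), Pde1a (0.04) and Capn6 (0.04), and among the closest to Cyp1b1 were Mecom (0.07) and Svep1 (0.11). Closest to Ugt1a6a were Cxcl5 (0.07), Crct1 (0.12) and Ptgs1 (0.14). With 4 points a profile is easily matched, and these are descriptions.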

How the data were processed

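Long RNA libraries of 4 stages were analysed, 1 per stage, and the 4 small RNA samples were not analysed here. Ribosomal RNA was removed before library construction, per the labels' protocols. The deposited values are FPKM per gene, per the file headers, and no source used here states the authors' strand setting, gene models, filters or pooling. The submitters' processing notes name HISAT2, Cufflinks and mm9. Strand is unknown, so reads of Arnt2 and Tiparp cannot be told apart from those of genes that overlap them in RefSeq. The number of fragments is unknown, so no counting interval is given. From the most frequent ratio of values under 0.06 FPKM, the depth of the day 3 library was roughly 0.637 of that of the MEF library, of the day 6 library 1.04 and of the iPSC library 1.01. These are rough, since the fullest bin of ratios held 21, 21 and 14 rows and another bin 21, 20 and 14.

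Values were put on log2(FPKM + 1). Rows with at least 1 FPKM in either library of a pair were compared, and a difference of at least 1 was called. Python 3.11.15, numpy 2.4.6, pandas 2.3.3 and matplotlib 3.10.9 were used, and the rule was tested on simulated data. With 1 library a stage no test could be run. Alternatives were 2 other pseudocounts, 2 other minimums, a larger difference and 3 rescalings. Named genes are the 8 members, genes of 9 pathway lists and 5 marker lists, and those closest in profile (5 for Ahr and 3 for each other member whose range was at least 1). Values of 2 of these genes, neither of them a member, are not reported here. The members and lists were chosen with earlier results of these data known.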

Additional observations from a re-analysis of the deposited data

How the results depend on the processing

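No paired analysis was possible because each stage had 1 library, and no replicate could be left out for the same reason. All values are descriptions, the number of fragments is unknown, and Cyp1a1, Ahrr and Ugt1a6a in iPSCs are too low for a firm ratio. The same member genes were past the rule under all 3 rescalings as in the deposited values, in each of the 5 comparisons. Rescaling to the same upper quartile moved the median of all genes by 0.17 between iPSCs and MEFs and by 0.11 between iPSCs and day 6, and equal column totals moved it by 0.14 between iPSCs and MEFs and by 0.10 between day 6 and MEFs. Of 320 member differences under alternatives, 299 moved by under 1.5-fold, 21 by more and 0 called ones changed sign. The other minimums and the larger difference act on the calls alone. Under them no member difference could move, so their part of the 299 was fixed by construction.

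Member calls for day 6 against day 3 and against MEFs (2 each) were 1 with a pseudocount of 5 FPKM or a minimum of 5 FPKM, which was Ahr, and 0 with a log2 difference of 2. For iPSCs against day 6 (5) they were 3 with that pseudocount or minimum, and for iPSCs against MEFs (4) they were 2 with that pseudocount, Arnt2 and Cyp1b1. Of 81 other genes of the pathway lists, those past the rule for day 3 against MEFs (1) were 2 with a pseudocount of 0.1. For day 6 against day 3 (11) they were 4 with a pseudocount of 5, 6 with a minimum of 5 and 1 with a difference of 2, and against MEFs (12) they were 5, 7 and 2. With a difference of 2 they were 16 for iPSCs against day 6 (33) and 11 against MEFs (28). Over all genes, calls for day 3 against MEFs (26) were 86 and 8 with pseudocounts of 0.1 and 5, 16 with a minimum of 5 and 6 with a difference of 2. For day 6 against day 3 (101) they were 257, 27, 67 and 6, and against MEFs (160) 329, 50, 106 and 19. For iPSCs against day 6 (5679) they were 3279 with a pseudocount of 5 and 2106 with a difference of 2, and against MEFs (5956) 3487 and 2194. A larger pseudocount, minimum or difference lowers such counts by construction.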

Other observations

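Genes of enzymes that make or remove tryptophan-derived ligands of AHR were also examined. Of 16 such genes and amino acid transporters in the table, 8 were compared between day 6 and day 3. Of these 0 were higher and 1 lower, beside 0.457% of all genes higher and 0.398% lower. Tdo2, Ido1 and Ido2, whose products open the kynurenine route, were each at 0.241 FPKM or less at all stages. Il4i1, an amino acid oxidase that yields AHR ligands, was at 1.61 FPKM in MEFs, 1.07 on day 3, 1.27 on day 6 and 1.06 in iPSCs. The transporter gene Slc7a5, which brings tryptophan into cells, was at 23.6, 27.0, 23.4 and 22.6 FPKM. Maob, a monoamine oxidase, was at 28.7, 22.6, 9.84 and 0.132 FPKM, so it was the 1 gene past the rule for day 6 against day 3. For iPSCs against MEFs 9 were compared, 2 were higher and 2 lower, beside 21.1% of all genes higher and 25% lower. Ccbl1, a kynurenine aminotransferase gene, was at 6.16 FPKM in iPSCs and 2.50 in MEFs. Ddc, the aromatic amino acid decarboxylase gene, was at 7.23 FPKM in iPSCs and 0.269 in MEFs. Maoa was at 5.88 FPKM in iPSCs and 50.8 in MEFs, and Maob was lower as well.

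Of 11 coregulators of AHR, 0 were past the rule for day 6 against day 3, where 0.457% of all genes were higher and 0.398% lower. Of the 11, 10 lay below their day 3 values, with a median log2 difference of -0.19, beside -0.01 over all genes. In iPSCs 1 was higher than in MEFs and 2 lower, shares no larger than the 21.1% and 25% of all genes. Ncoa3, a coactivator of nuclear receptors, was at 47.7 FPKM in iPSCs and 9.53 in MEFs. Klf6, a zinc finger partner of AHR, was at 18.4 FPKM in iPSCs and 114 in MEFs. Rela, the NF-kappaB subunit, was at 5.16 FPKM in iPSCs and 23.4 in MEFs. Por, the reductase that supplies electrons to P450 enzymes, was at 44.7 FPKM in MEFs, 45.3 on day 3, 65.4 on day 6 and 43.8 in iPSCs and within the rule throughout, while its partner gene Cyp1b1 was low in iPSCs.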
